A study of Arabidopsis thaliana with 27 samples.

Results

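The enzymes of photorespiration that reside in chloroplasts and leaf peroxisomes, with 1 carrier of the chloroplast envelope, were followed across Arabidopsis seedlings of 3 genotypes with and without cadmium (Cd). The 8 loci were chosen by name: both loci of phosphoglycolate phosphatase (PGLP1A, AT5G36700, and PGLP1B, AT5G36790), the plastid glycolate/glycerate translocator PLGG1 (AT1G32080, named LrgB in RefSeq), glycerate kinase (GLYK, AT1G80380), the peroxisomal glutamate:glyoxylate aminotransferases AOAT1 (AT1G23310, also GGT1) and AOAT2 (AT1G70580), serine:glyoxylate aminotransferase (AGT, AT2G13360) and hydroxypyruvate reductase (HPR1, AT1G68010). They account for 8 of the 32627 loci and 12 of the 37118 features on the array, and no filter removed any of them. The groups were gox2, the mutant of glycolate oxidase 2, and 35S::GOX2, in which the constitutive 35S promoter drives that gene, each compared with WT. All were of ecotype Col-0 and were grown for 2 weeks on MS medium. Each genotype was sampled as a control without Cd, after 30 min and after 24 h in 100 μM Cd, with 3 single-color NimbleGen arrays in each of the 9 groups and 27 in all. The first time is 30 min in the labels but 1 h in the plant methods, and was not settled. Each replicate pooled several plants, and the material is given as leaves in 1 label and as seedlings in others. The label of the mutant's control arrays gives the gene as atgox, without a number.

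Photorespiration recovers the carbon of phosphoglycolate, which Rubisco forms when it binds oxygen in place of CO2. PGLP1 removes the phosphate in the chloroplast, and PLGG1 exports the glycolate. In peroxisomes glycolate oxidase makes glyoxylate and H2O2, and aminotransferases turn the glyoxylate into glycine. Serine returns from mitochondria to the peroxisome, where AGT and HPR1 convert it to glycerate, and GLYK phosphorylates this glycerate in the chloroplast to close the cycle. Peroxisomal glycolate oxidation is a major source of H2O2 in green leaves.

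The level of GOX2 went against several labels. It was 9.60 to 10.45 on a log2 scale on the arrays labelled gox2 Cd 30 min, 35S::GOX2 control and WT Cd 30 min, and at least 13.63 on the other 18, including all arrays labelled gox2 control and gox2 Cd 24 h. By the correlation of whole arrays, 8 of the 27 arrays were closest to an array with another label. All 8 were among the 12 arrays labelled gox2 control, gox2 Cd 24 h, 35S::GOX2 Cd 30 min and 35S::GOX2 Cd 24 h, and the other 5 groups each held together. The genotypes below are therefore those of the labels. For each comparison the count is also given without 6 of these arrays (all 3 labelled gox2 Cd 24 h, replicate 1 of gox2 control, and replicate 2 of both Cd groups of 35S::GOX2), a choice made after seeing the data. Leaving them out also raised the number of all features past the threshold in every comparison that could still be fitted. The arrays lay on 3 slides. Slide 1 held WT control, WT Cd 24 h, gox2 Cd 30 min and 35S::GOX2 control, so a comparison of any of these with the remaining groups is also a comparison of slides. Of the 18 light-harvesting and Rubisco genes, 17 had a median above that of the arrays, as did 13 of the 16 root markers, so the RNA held root transcripts beside those of green tissue.

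All 8 loci gave bright signals and varied little. Their representative features spanned 0.43 to 0.77 log2 units from the lowest to the highest of the 27 arrays, against a median span of 0.89 over all features of the array. AOAT2 had the widest span (0.77) and AOAT1 the narrowest (0.43). No difference between 2 groups exceeded 0.53 log2 units. Values are log2 of the deposited intensity after quantile normalization between arrays, and levels are compared only within a feature, since different probes cannot be set against each other.

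**Figure D1:**
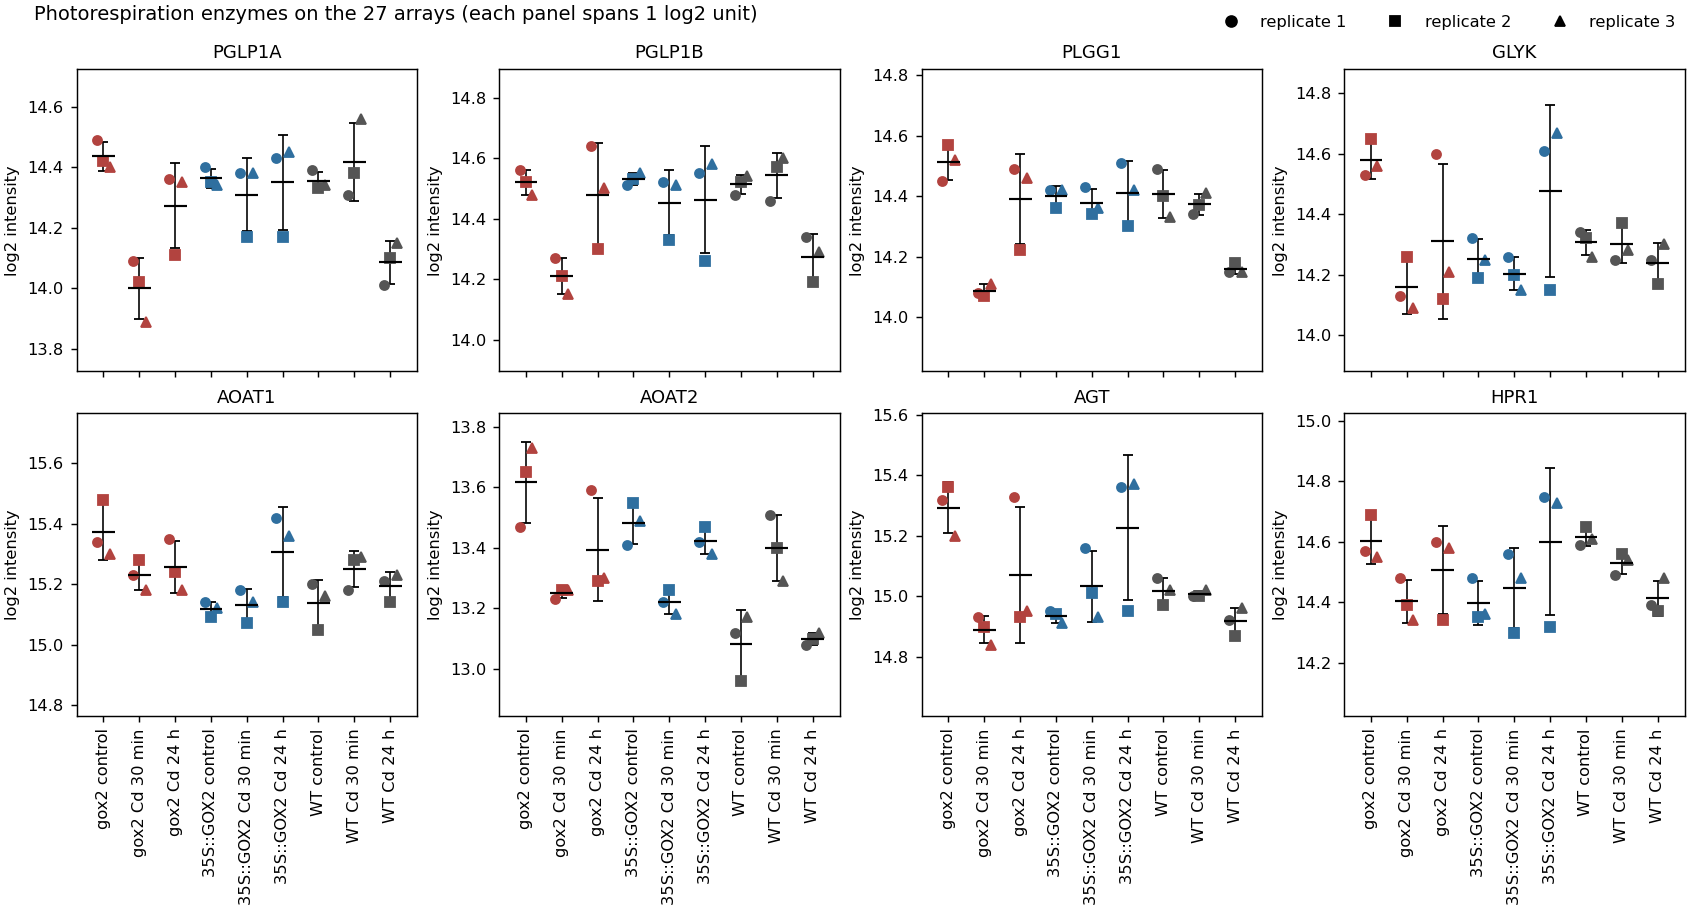
Log2 intensity (vertical axis) of the representative feature of each of the 8 loci on the arrays of the 9 labelled groups (horizontal axis). Points are single arrays, with their replicate number given by the symbol, and black lines are the group mean ± SD (n = 3). PGLP1A, PGLP1B, PLGG1, GLYK and AGT had their lowest means on the arrays labelled gox2 Cd 30 min, and AOAT2 had its lowest on those labelled WT control.

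PGLP1A, the first enzyme of the pathway after Rubisco, had 14.49, 14.42 and 14.40 log2 units on the arrays labelled gox2 control. Its values were 14.09, 14.02 and 13.89 on those labelled gox2 Cd 30 min. They were 14.36, 14.11 and 14.35 on those labelled gox2 Cd 24 h. The drop at 30 min left no overlap with the control arrays, whereas at 24 h replicate 2 was low and the others were just under the control arrays. On arrays labelled 35S::GOX2, PGLP1A had 14.40, 14.35 and 14.34 in the control, 14.38, 14.17 and 14.38 after 30 min, and 14.43, 14.17 and 14.45 after 24 h. Replicate 2 was the low array of both Cd groups. On arrays labelled WT, it had 14.39, 14.33 and 14.34 in the control, 14.31, 14.38 and 14.56 after 30 min, and 14.01, 14.10 and 14.15 after 24 h, and the last of these groups lay below both others. The highest mean was that of gox2 control (14.44 ± 0.04) and the lowest that of gox2 Cd 30 min (14.00 ± 0.10; SD, n = 3). Each of the 9 groups overlapped the next in this order, and separations appeared only between groups farther apart.

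PGLP1B lies close to PGLP1A on the chromosome, with 14 annotated genes between them in the RefSeq table. The loci are near-identical copies, so probes could not be taken to tell them apart. Counts of loci below still list them separately, although their calls may be a single signal. The value of PGLP1B was 14.27, 14.21 and 14.15 on the arrays labelled gox2 Cd 30 min, against 14.56, 14.52 and 14.48 on those labelled gox2 control. It was 14.34, 14.19 and 14.29 on the arrays labelled WT Cd 24 h, against 14.48, 14.52 and 14.54 on those labelled WT control. The arrays of both pairs did not overlap. All 3 features of PGLP1A and the single feature of PGLP1B, each built on 3 probe pairs, were at their lowest mean on the arrays labelled gox2 Cd 30 min and at their second lowest on those labelled WT Cd 24 h. The 4 features correlated at r of 0.86 to 0.92 over the 27 arrays, which share slides and normalization.

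**Figure D2:**
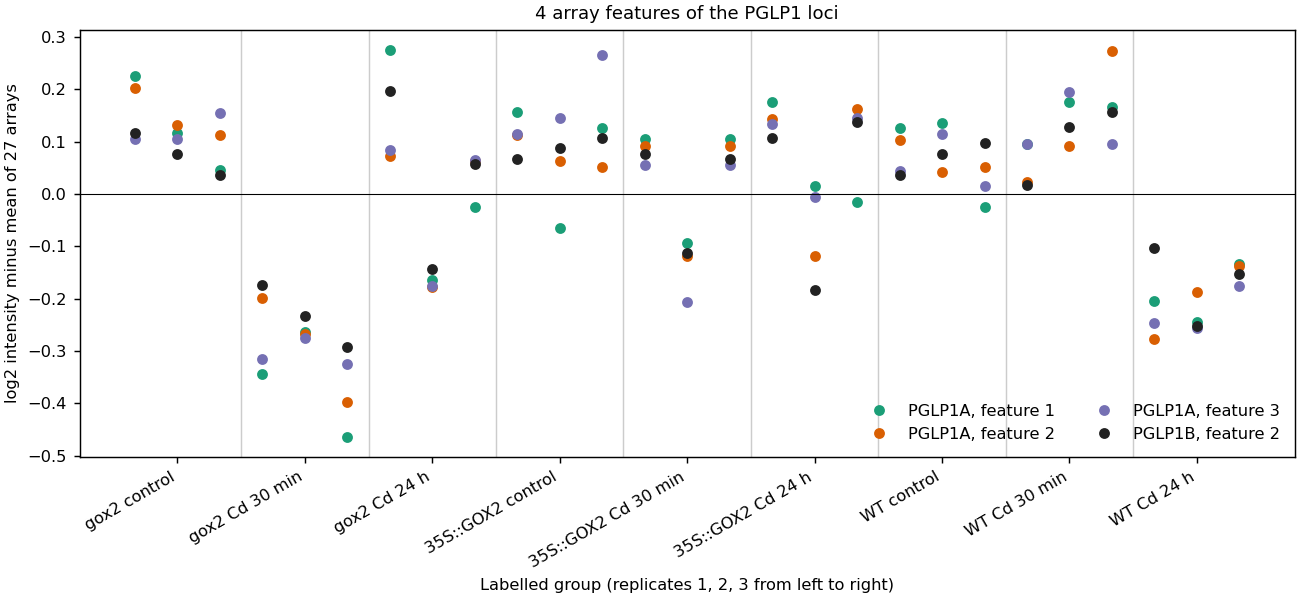
Log2 intensity minus the mean of the 27 arrays (vertical axis) for the 3 features of PGLP1A and the feature of PGLP1B, by array within each labelled group (horizontal axis). The features moved together and were below their mean on every array labelled gox2 Cd 30 min or WT Cd 24 h.

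PLGG1, which carries glycolate out of the chloroplast and glycerate into it, had the same 2 groups as PGLP1A at the bottom. It had 14.08, 14.07 and 14.11 log2 units on the arrays labelled gox2 Cd 30 min, against 14.45, 14.57 and 14.52 on those labelled gox2 control. It had 14.15, 14.18 and 14.15 on the arrays labelled WT Cd 24 h, against 14.49, 14.40 and 14.33 on those labelled WT control. These 2 Cd groups did not overlap each other, and both lay below every array of the other 7 groups, whose means ran between 14.37 and 14.51. The arrays labelled gox2 Cd 24 h had 14.49, 14.22 and 14.46, and those labelled 35S::GOX2 Cd 24 h had 14.51, 14.30 and 14.42, with replicate 2 lowest in both.

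GLYK, the chloroplast kinase that ends the cycle, had a different profile. It had 14.53, 14.65 and 14.56 log2 units on the arrays labelled gox2 control. It had 14.13, 14.26 and 14.09 on those labelled gox2 Cd 30 min, which did not overlap the control. On the arrays labelled gox2 Cd 24 h it had 14.60, 14.12 and 14.21, so replicate 1 was at the level of the control arrays and the others near the 30 min arrays. The same split appeared on the arrays labelled 35S::GOX2 Cd 24 h, with 14.61, 14.15 and 14.67, where replicate 2 was the low one. The groups labelled 35S::GOX2 control (14.32, 14.19 and 14.25), 35S::GOX2 Cd 30 min (14.26, 14.20 and 14.15) and WT (14.17 to 14.37 over the 9 arrays) were close together. The SD within groups was 0.14 log2 units and that of the group means 0.13, and the second feature of GLYK, which correlated with the first at r = 0.93, was highest on replicates 1 and 3 of 35S::GOX2 Cd 24 h and replicate 1 of gox2 Cd 24 h.

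AGT, which takes the amino group of serine in the peroxisome, resembled GLYK. It had 15.32, 15.36 and 15.20 log2 units on the arrays labelled gox2 control, 14.93, 14.90 and 14.84 on those labelled gox2 Cd 30 min, and 15.33, 14.93 and 14.95 on those labelled gox2 Cd 24 h. It had 14.95, 14.94 and 14.91 on the arrays labelled 35S::GOX2 control, 15.16, 15.01 and 14.93 on those labelled 35S::GOX2 Cd 30 min, and 15.36, 14.95 and 15.37 on those labelled 35S::GOX2 Cd 24 h. The WT groups had 15.06, 14.97 and 15.02 in the control, 15.00, 15.00 and 15.02 after 30 min, and 14.92, 14.87 and 14.96 after 24 h. The 6 highest arrays of AGT were those of gox2 control, gox2 Cd 24 h replicate 1 and 35S::GOX2 Cd 24 h replicates 1 and 3. These were also the 6 highest arrays of GLYK.

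HPR1, the peroxisomal reductase that makes glycerate, stayed within the narrowest range of group means, 0.22 log2 units. It had 14.57, 14.69 and 14.55 on the arrays labelled gox2 control, 14.48, 14.35 and 14.36 on those labelled 35S::GOX2 control, and 14.59, 14.65 and 14.61 on those labelled WT control. The arrays labelled 35S::GOX2 control lay below all of the others in this set. Its highest and lowest arrays were both labelled 35S::GOX2 with Cd: 14.75 on replicate 1 at 24 h and 14.30 on replicate 2 at 30 min. All neighbouring groups in the order of its levels overlapped.

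AOAT1 and AOAT2 are the aminotransferases that make glycine from glyoxylate, and AOAT1 is the main form in leaves. AOAT2 had 13.47, 13.65 and 13.73 log2 units on the arrays labelled gox2 control, 13.41, 13.55 and 13.49 on those labelled 35S::GOX2 control, and 13.12, 12.96 and 13.17 on those labelled WT control. Every control array of both lines was above every WT control array. After 30 min of Cd, it had 13.23, 13.26 and 13.26 on the arrays labelled gox2, 13.22, 13.26 and 13.18 on those labelled 35S::GOX2, and 13.51, 13.40 and 13.29 on those labelled WT. Every array of both lines was then below every WT array, the opposite of the controls. After 24 h it had 13.59, 13.29 and 13.30 on the arrays labelled gox2, 13.42, 13.47 and 13.38 on those labelled 35S::GOX2, and 13.08, 13.10 and 13.12 on those labelled WT. The groups WT Cd 24 h (13.10 ± 0.02) and WT control (13.08 ± 0.11; SD, n = 3) overlapped each other and lay below the other 7.

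AOAT1 had 15.34, 15.48 and 15.30 log2 units on the arrays labelled gox2 control, against 15.20, 15.05 and 15.16 on those labelled WT control. It had 15.42, 15.14 and 15.36 on the arrays labelled 35S::GOX2 Cd 24 h, against 15.14, 15.09 and 15.12 on those labelled 35S::GOX2 control. The arrays of the first pair did not overlap, and in the second pair replicate 2 of the Cd group was level with the control. Each group overlapped its neighbour in the order of levels. The features of AOAT1 correlated with each other at only r = 0.61, and the dimmer one followed AOAT2 (r = 0.83) more than the brighter one did (r = 0.46).

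Without Cd, AOAT2 was the only 1 of the 8 loci that passed the threshold against WT in both lines. The 2 comparisons share the WT control arrays. On the arrays labelled gox2 control, AOAT2 was 1.45-fold higher than on those labelled WT control (log2 fold change 0.53 ± 0.08 SE, adjusted p = 0.000249). AOAT1 (0.24 ± 0.07, adjusted p = 0.020) and AGT (0.28 ± 0.10, adjusted p = 0.048) were also higher, so that 3 of 8 loci rose and none fell, where 26.9% of all features passed the test and 12.1% were higher. GLYK was 0.27 ± 0.11 higher, with an adjusted p of 0.080. The call of AOAT2 held without any 1 of the 6 arrays and with slide as a random block (adjusted p = 0.0062), whereas those of AOAT1 and AGT were lost with that block (adjusted p = 0.092 and 0.153). With the block 4157 of all features passed, against 9996. AOAT1 also lost its call without gox2 control replicate 2 (adjusted p = 0.103) or WT control replicate 2 (0.096), and AGT without any of the 6 arrays (0.061 to 0.138). Without the doubtful arrays, 5 loci were higher, while the number of all features past the threshold rose from 9996 to 16831. Root markers were lower on the same arrays: 8 of 16 fell and none rose, with a mean level, centred on the 27 arrays, of -0.26 to -0.09 in gox2 control and 0.32 to 0.46 in WT control. Of the 18 light-harvesting and Rubisco genes, 2 rose and none fell (0.04 to 0.06 in gox2 control, -0.02 to 0.02 in WT control). The part of root tissue in the members' differences was not tested, and in such bulk samples fewer cells of a type and less RNA per cell cannot be told apart.

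AOAT2 was also 1.32-fold higher on the arrays labelled 35S::GOX2 control than on those labelled WT control (0.40 ± 0.08, adjusted p = 0.000794). It was the only 1 of the 8 loci past the threshold, where 38.3% of all features passed and 16.2% were higher. Both groups lay on slide 1, and the call held with slide as a fixed term (adjusted p = 0.000763), without any 1 of the 6 arrays (0.0013 to 0.0076) and under each other alternative tried. HPR1 was 0.22 ± 0.10 lower, with an adjusted p of 0.084, and the representative features of the other 6 loci differed by at most 0.08 in either direction. The third feature of PGLP1A (mean 14.34 against 14.22) and the dimmer feature of AOAT1 (15.08 against 14.93) differed by more, without passing. Without the doubtful arrays, which are in neither group but enter the estimate of the spread, 1 locus was higher and 1 lower. The number of all features past the threshold rose from 14208 to 20158 in that fit. Of the root markers 1 of 16 fell (0.17 to 0.21 in 35S::GOX2 control, 0.32 to 0.46 in WT control), and 3 of 18 light-harvesting and Rubisco genes rose.

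After 30 min of Cd, the arrays labelled gox2 had lower levels than their control for most of the 8 loci. PLGG1 (-0.43 ± 0.07, adjusted p = 0.000197), PGLP1A (-0.44 ± 0.09, adjusted p = 0.0012), AOAT2 (-0.37 ± 0.08, adjusted p = 0.0025) and AGT (-0.40 ± 0.10, adjusted p = 0.0061) fell to between 0.74 and 0.78 of the control level. GLYK (-0.42 ± 0.11, adjusted p = 0.0094) and PGLP1B (-0.31 ± 0.09, adjusted p = 0.011) fell as well. In all, 6 of 8 loci were lower and none higher, where 27.7% of all features passed the test and 12.4% were lower. This count includes both PGLP1 loci, which may be a single signal. AOAT1 (-0.14 ± 0.07, adjusted p = 0.155) and HPR1 (-0.20 ± 0.10, adjusted p = 0.133) did not pass, although the dimmer feature of AOAT1 did (-0.16 ± 0.06, adjusted p = 0.049). The arrays of all 8 loci did not overlap between the groups, against 44.9% of all features. The median change of the members was -0.39, beside 0.01 over all features.

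The 6 calls held without any 1 of the 6 arrays, and without the doubtful ones 7 loci were lower. In the latter fit 15816 of all features passed, against 10295. The groups lay on slides 1 and 3, so line, treatment and slide cannot be told apart here. With slide as a random block 4 loci remained past the threshold, and PGLP1B and GLYK did not (adjusted p = 0.098 and 0.068). With the block 4289 of all features passed, against 10295. Root markers were higher on the same arrays (7 of 16 rose and none fell, 0.02 to 0.03 in gox2 Cd 30 min against -0.26 to -0.09 in gox2 control), while 1 of 18 light-harvesting and Rubisco genes fell (-0.12 to -0.09 against 0.04 to 0.06). Their part in the fall of the members was not tested.

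On the arrays labelled 35S::GOX2 Cd 30 min, AOAT2 alone was lower than in the control of that line (-0.26 ± 0.08, adjusted p = 0.024), 1 of 8 loci where 23% of all features passed and 10.7% were lower. On those labelled WT Cd 30 min, AOAT2 alone differed from the control and was higher (0.31 ± 0.08, adjusted p = 0.012), 1 of 8 loci where 15% of all features passed and 8.6% were higher. The representative features of the other 7 loci changed by at most 0.10 in 35S::GOX2 and 0.12 in WT. In 35S::GOX2 the third feature of PGLP1A (-0.21 ± 0.08, adjusted p = 0.052) and the dimmer feature of GLYK (-0.13 ± 0.15, adjusted p = 0.585) were lower by more, without passing. Without the doubtful arrays each count stayed at 1. Over all features the count rose from 8522 to 12478 in 35S::GOX2 and from 5579 to 11254 in WT. With slide as a random block, 3024 of all features passed in 35S::GOX2 and 1213 in WT. Both calls of AOAT2 were lost in that fit (adjusted p = 0.183 in 35S::GOX2 and 0.160 in WT). That of 35S::GOX2 was lost without replicate 2 or 3 of its control (0.098 and 0.080) or replicate 1 or 3 of the Cd group (0.055 and 0.073), and that of WT without WT control replicate 2 (0.077) or WT Cd 30 min replicate 1 (0.095). Among the 16 root markers 1 rose in 35S::GOX2 (-0.59 to 0.41 on the Cd arrays, with replicate 2 the low one, against 0.17 to 0.21 in the control) and none changed in WT (0.20 to 0.24 against 0.32 to 0.46).

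**Figure D3:**
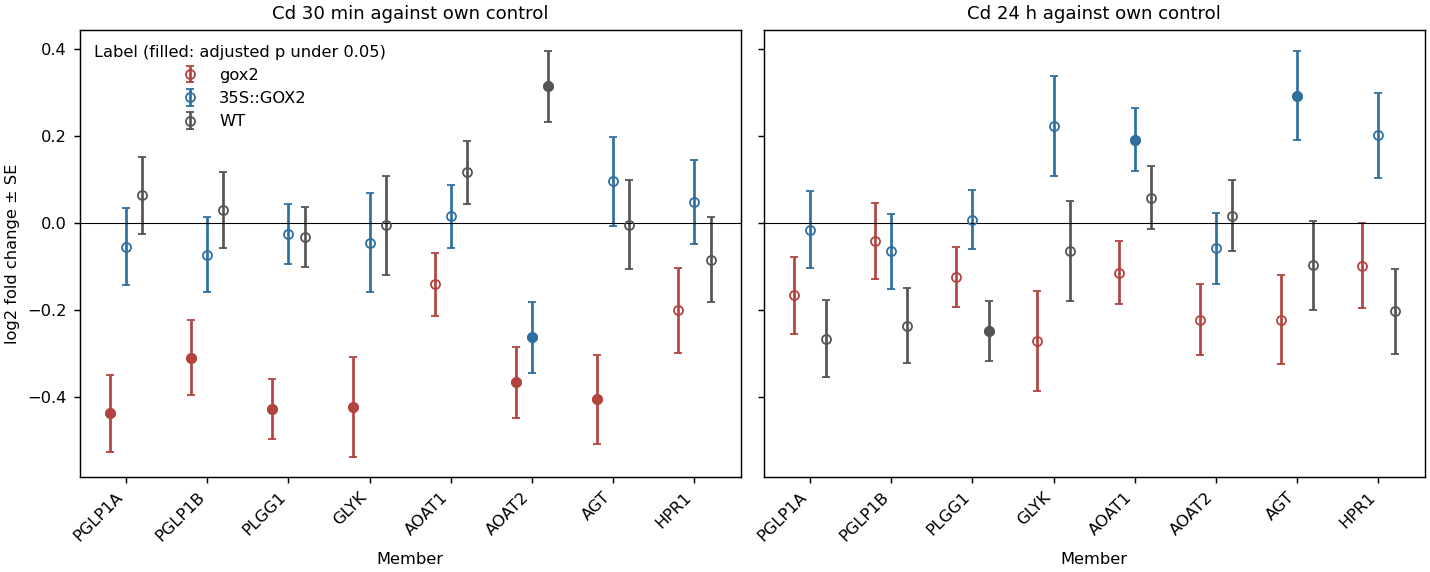
Log2 fold change ± SE (vertical axis) of each locus (horizontal axis) on the Cd arrays of each labelled line against that line's own control, at 30 min (left) and 24 h (right), n = 3 arrays a group. Filled points had an adjusted p under 0.05: 6 loci fell at 30 min on the arrays labelled gox2, and AOAT2 fell on those labelled 35S::GOX2 and rose on those labelled WT.

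The difference of the responses at 30 min was tested directly. The response of the arrays labelled gox2 was lower than that of the arrays labelled WT for AOAT2 (-0.68 ± 0.12, adjusted p = 0.000625), PGLP1A (-0.50 ± 0.13, adjusted p = 0.0069), PLGG1 (-0.39 ± 0.10, adjusted p = 0.0062), AGT (-0.40 ± 0.14, adjusted p = 0.046) and PGLP1B (-0.34 ± 0.12, adjusted p = 0.045), 5 of 8 loci where 27% of all features passed and 13% were lower. Both PGLP1 loci are in this count and may be a single signal. Of the 12 features 8 were lower, among them the dimmer feature of AOAT1. For AOAT2, higher control arrays and an opposite response in WT both entered the difference. AGT and PGLP1B lost their calls in 11 of the 12 fits that left out 1 array, with adjusted p up to 0.091 and 0.090. Each call was lost with slide as a random block (0.070 for AOAT2, the lowest), and 7 loci passed without the doubtful arrays. In the latter fit 17395 of all features passed, against 10030. With the random block only 109 of all features did. For 35S::GOX2 against WT, the response of AOAT2 alone differed (-0.58 ± 0.12, adjusted p = 0.000699), 1 of 8 loci where 29.7% of all features passed and 13.6% were lower. That call held with slide as a random block (adjusted p = 0.0051) and was lost with slide as a fixed term (-0.44, adjusted p = 0.070). In these 2 fits 8826 and 6854 of all features passed, against 11041.

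Set against each other at 30 min of Cd, the arrays labelled gox2 had less PGLP1A (-0.42 ± 0.09, adjusted p = 0.012), PLGG1 (-0.29 ± 0.07, adjusted p = 0.018) and PGLP1B (-0.33 ± 0.09, adjusted p = 0.027) than those labelled WT. These were 3 of 8 loci, all lower, where 7.67% of all features passed and 4% were lower. The calls of PGLP1A and PGLP1B may be a single signal, since probes could not be taken to tell the loci apart. All 3 features of PGLP1A passed, with log2 fold changes of -0.51 to -0.42. PGLP1A kept its call without any 1 of the 6 arrays (adjusted p = 0.030 to 0.047). PGLP1B lost it without each of them (0.062 to 0.089) and PLGG1 without gox2 Cd 30 min replicate 1 (0.066) or 2 (0.072) or WT Cd 30 min replicate 1 (0.057) or 2 (0.055). The groups lay on slides 1 and 2, and with slide as a random block none of the 3 passed (lowest adjusted p = 0.174). In that fit only 7 of all features passed, against 2846. The same count of 3 was obtained without the doubtful arrays, where 10825 of all features passed, against 2846 with them. Between 35S::GOX2 and WT at 30 min, none of the 8 loci passed, where 16.9% of all features did, 1 had an unadjusted p under 0.05 (AOAT2, -0.18 ± 0.08), and 1 was lower without the doubtful arrays. Without those arrays 13186 of all features passed, against 6261. In these pairs 1 and 0 of 16 root markers changed.

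After 24 h of Cd, the arrays labelled WT had less PLGG1 than their control (-0.25 ± 0.07, adjusted p = 0.0496), 1 of 8 loci where 3.22% of all features passed and 1.72% were lower. PGLP1A (-0.27 ± 0.09, adjusted p = 0.091) and PGLP1B (-0.24 ± 0.09, adjusted p = 0.123) changed by about as much without passing, and the third feature of PGLP1A did pass (-0.29 ± 0.08, adjusted p = 0.046). Both groups lay on slide 1. The call of PLGG1 was kept with slide as a random (adjusted p = 0.043) or a fixed (0.040) block and was lost without any 1 of the 6 arrays (0.072 to 0.188). Without the doubtful arrays, which belong to other groups, 4 loci were lower. Over all features the number past the threshold rose from 1194 to 8977 in that fit. Of the root markers 1 of 16 fell (-0.18 to -0.10 in WT Cd 24 h, 0.32 to 0.46 in WT control), and 1 of 18 light-harvesting and Rubisco genes fell (-0.10 to -0.06 against -0.02 to 0.02).

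AGT (0.29 ± 0.10, adjusted p = 0.026) and AOAT1 (0.19 ± 0.07, adjusted p = 0.037) were higher on the arrays labelled 35S::GOX2 Cd 24 h than in the control of that line, 2 of 8 loci where 43.9% of all features passed and 23.6% were higher. The dimmer feature of AOAT1 did not pass (0.07 ± 0.06, adjusted p = 0.372). With its features averaged, AOAT1 did not pass either (adjusted p = 0.090). Replicate 2 of the Cd group decided much of this comparison: without it GLYK (0.39 ± 0.10, adjusted p = 0.0044) and HPR1 (0.34 ± 0.08, adjusted p = 0.0032) were higher too. The share of all features past the threshold without that array is not given here. Without any 1 of the other 5 arrays no locus passed, and with slide as a random block none did (adjusted p = 0.089 for AGT and 0.113 for AOAT1). With the block 10594 of all features passed, against 16279. Without the doubtful arrays 4 loci were higher, and 20872 of all features passed, against 16279. Root markers were lower on the Cd arrays (6 of 16 fell, -0.70 to -0.26 against 0.17 to 0.21 in the control), 1 of 18 light-harvesting and Rubisco genes fell, and their part was not tested. Against 35S::GOX2 Cd 30 min, on the same slide, none of the 8 loci passed, where 4.54% of all features did, and 3 had an unadjusted p under 0.05. Of the root markers 3 of 16 fell. Without 35S::GOX2 Cd 24 h replicate 2, GLYK (0.43 ± 0.10), AGT (0.34 ± 0.09), HPR1 (0.29 ± 0.08) and AOAT1 (0.26 ± 0.07) were higher, with adjusted p of 0.0079, 0.021, 0.027 and 0.020. Without the doubtful arrays 5 loci were higher, and 13176 of all features passed, against 1685.

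None of the 8 loci differed between the arrays labelled gox2 Cd 24 h and gox2 control by limma's test, where 0.0135% of all features passed, and 3 had an unadjusted p under 0.05. All 8 estimates were below 0, at -0.27 to -0.04. Without gox2 Cd 24 h replicate 1, GLYK (-0.42 ± 0.11, adjusted p = 0.030), AOAT2 (-0.32 ± 0.08, adjusted p = 0.024) and AGT (-0.35 ± 0.10, adjusted p = 0.038) were lower. The root markers of the arrays labelled gox2 Cd 24 h spread over -0.60 to 0.41, wider than in gox2 control (-0.26 to -0.09), and none of 16 passed. No count without the doubtful arrays could be had, since they include all arrays of this group.

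At 24 h of Cd, AOAT2 (0.32 ± 0.08, adjusted p = 0.012), PLGG1 (0.25 ± 0.07, adjusted p = 0.019) and AGT (0.31 ± 0.10, adjusted p = 0.046) were higher on the arrays labelled 35S::GOX2 than on those labelled WT. These were 3 of 8 loci, all higher, where 14.6% of all features passed and 7.51% were higher. All 8 estimates were above 0 (0.11 to 0.32), with PGLP1A at 0.26 ± 0.09 (adjusted p = 0.053). Of the 12 features 5 were higher. They included the third feature of PGLP1A (mean 14.26 against 13.94) and the dimmer feature of AOAT1 (15.15 against 14.95). AOAT2 kept its call without any 1 of the 6 arrays (adjusted p = 0.026 to 0.048). PLGG1 lost it without WT Cd 24 h replicate 1 (0.067) or 3 (0.060) or 35S::GOX2 Cd 24 h replicate 1 (0.106) or 3 (0.059), and AGT without any of these or WT Cd 24 h replicate 2 (0.084 to 0.195). Leaving out 35S::GOX2 Cd 24 h replicate 2 raised the count to 7, with GLYK (0.40 ± 0.10, adjusted p = 0.0086), PGLP1A (0.35 ± 0.09, adjusted p = 0.0090), HPR1 (0.33 ± 0.08, adjusted p = 0.0098) and PGLP1B (0.29 ± 0.08, adjusted p = 0.017) added, and leaving out the doubtful arrays raised it to 8. Without the doubtful arrays 12880 of all features passed, against 5406. For the fit without replicate 2 alone, the share of all features past the threshold is not given here. With slide as a random block the count of loci was 0 (adjusted p = 0.086 for AOAT2), and 1213 of all features passed. Root markers were lower in 35S::GOX2 (8 of 16 fell, -0.70 to -0.26 against -0.18 to -0.10 in WT), 3 of 18 light-harvesting and Rubisco genes rose, and their part was not tested.

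Between the arrays labelled gox2 Cd 24 h and WT Cd 24 h, none of the 8 loci passed limma's test, where 2.14% of all features did, and 4 had an unadjusted p under 0.05. The largest estimates were those of AOAT2 (0.29 ± 0.08, adjusted p = 0.062) and PLGG1 (0.23 ± 0.07, adjusted p = 0.078). Without gox2 Cd 24 h replicate 2, AOAT2 (0.34 ± 0.09, adjusted p = 0.019), PLGG1 (0.31 ± 0.07, adjusted p = 0.0074) and PGLP1B (0.29 ± 0.09, adjusted p = 0.033) were higher, and without replicate 3 AOAT2 was (0.34 ± 0.09, adjusted p = 0.049). Among root markers 1 of 16 fell. The response at 24 h differed from that of WT for HPR1 alone in 35S::GOX2 (0.40 ± 0.14, adjusted p = 0.034), 1 of 8 loci where 27.5% of all features passed and 14.9% were higher. HPR1 passed in neither line by itself: its estimates were 0.20 ± 0.10 in 35S::GOX2 and -0.20 ± 0.10 in WT. The call was lost in 9 of the 12 fits that left out 1 array (adjusted p up to 0.103, without 35S::GOX2 Cd 24 h replicate 1) and with slide as a random block (0.102), while leaving out 35S::GOX2 Cd 24 h replicate 2 gave 5 loci past the threshold and leaving out the doubtful arrays gave 7. Without the doubtful arrays 18136 of all features passed for this difference of 35S::GOX2, against 10223. With slide as a random block 6175 of all features did. The share over all features is not given for the fits that left out 1 array. For gox2 no locus had a response at 24 h that differed from that of WT, where 0.0162% of all features did, and none had an unadjusted p under 0.05.

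**Figure D4:**
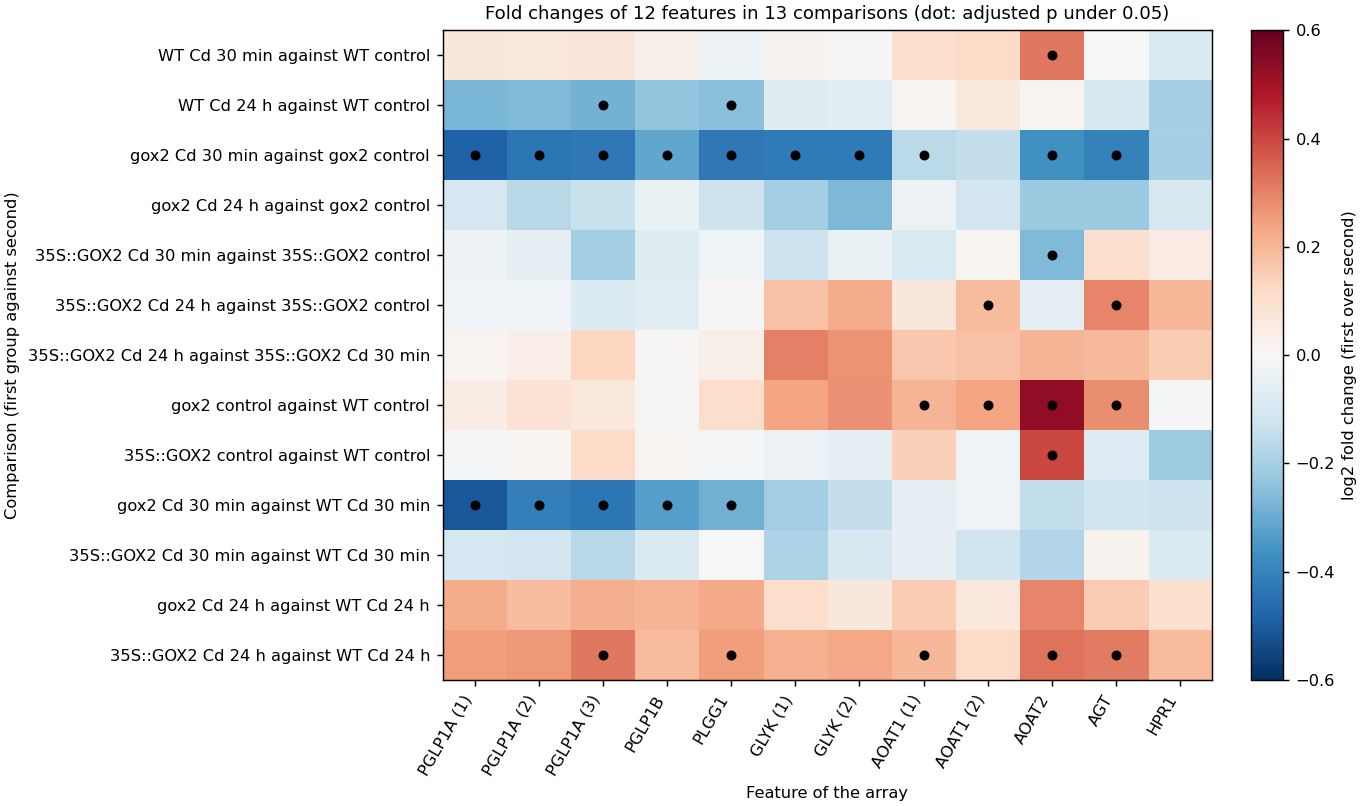
Log2 fold change (color) of the 12 features of the 8 loci (columns, feature number in parentheses where a locus has several) in 13 comparisons (rows, first group over second). Dots mark an adjusted p under 0.05. The comparison of gox2 Cd 30 min with gox2 control carries 10 dots, all on falls, and AOAT2 carries a dot in 6 comparisons. Comparisons that share a group are not independent.

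The remaining genes of photorespiration were read from a list of 24, all on the array. Against gox2 control, 27.7% of all features passed and 12.4% were lower on the arrays labelled gox2 Cd 30 min. Of the 24, 5 fell there and none rose. Beside GOX2 (-4.19 ± 0.12, adjusted p = 2.75e-15), whose level goes against the label of the control, these were AT1G32470, an H protein of glycine decarboxylase (-0.55 ± 0.07, adjusted p = 5.01e-05), the catalase CAT2, which removes peroxisomal H2O2 (-0.47 ± 0.11, adjusted p = 0.0025), the glycolate oxidase GOX1 (-0.38 ± 0.06, adjusted p = 0.000147) and the mitochondrial carrier BOU. The median of the 24 was -0.05, against -0.39 for the 8 members. Between gox2 control and WT control, 5 of the 24 rose and 1 fell, where 26.9% of all features passed. Those that rose included GOX2 (0.40 ± 0.12, adjusted p = 0.016), against the label, AT1G32470 (0.39 ± 0.07, adjusted p = 0.0011) and CAT2 (0.32 ± 0.11, adjusted p = 0.029). HPR2, the cytosolic hydroxypyruvate reductase, fell (-0.22 ± 0.07, adjusted p = 0.024). Between 35S::GOX2 control and WT control, 2 rose and 3 fell, where 38.3% of all features passed. HPR2 was again lower (-0.25 ± 0.07, adjusted p = 0.0065), and GOX2 was at -4.05 ± 0.12, against the label. These comparisons share the WT control arrays.

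With Cd, GOX2 (0.54 ± 0.12, adjusted p = 0.0049), AT1G32470 (0.53 ± 0.07, adjusted p = 0.000270), CAT2 (0.40 ± 0.11, adjusted p = 0.016) and GDCH, a further H protein, rose on the arrays labelled 35S::GOX2 Cd 24 h against those labelled WT Cd 24 h, and the glycolate carrier BASS6 fell (-0.53 ± 0.15, adjusted p = 0.023). In that comparison 14.6% of all features passed. Against 35S::GOX2 control, 4 of the 24 rose and 3 fell at 24 h, where 43.9% of all features passed. BASS6 was at -0.52 ± 0.15 and AT1G32470 at 0.41 ± 0.07. GOX2 was at 4.53 ± 0.12, where the control arrays had a low level against their label. Against 35S::GOX2 Cd 30 min, BASS6 (-0.63 ± 0.15, adjusted p = 0.033) and HPR3 (-0.51 ± 0.14, adjusted p = 0.048) fell, where 4.54% of all features passed. On the arrays labelled WT Cd 30 min, GOX2 was lower than in WT control (-3.43 ± 0.12, adjusted p = 1.54e-13), a level that goes against the label. GDCH was higher (0.21 ± 0.07, adjusted p = 0.035), and 15% of all features passed. At 24 h none of the 24 passed on the arrays labelled WT, where 3.22% of all features did. Of the 12 Calvin-Benson cycle enzymes, 3 fell and none rose on the arrays labelled gox2 Cd 30 min against gox2 control, and likewise 3 fell against WT Cd 30 min. Of all features, 12.4% were lower in the first comparison and 4% in the second. Of 13 circadian clock genes, 9 rose and 1 fell on the arrays labelled 35S::GOX2 Cd 24 h against 35S::GOX2 control, where GLYK, AGT and HPR1 were high on replicates 1 and 3. Of all features, 43.9% passed in that comparison and 23.6% were higher. The mean of the clock genes, relative to the 27 arrays, was 0.20, 0.19 and 0.17 on replicates 1 to 3 of the Cd group. In the control it was -0.22, -0.21 and -0.24. On replicates 1 to 3 it was -0.10, 0.14 and -0.14 in 35S::GOX2 Cd 30 min. In gox2 Cd 24 h it was -0.01, 0.15 and -0.14. The part of the time of sampling was not tested.

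Over the 27 arrays the members correlated in a graded way. The closest pairs were GLYK with AGT (r = 0.92), PGLP1A with PGLP1B (r = 0.92) and PGLP1A with PLGG1 (r = 0.88). HPR1 went with GLYK (r = 0.78) and AGT (r = 0.76), and AOAT1 with GLYK (r = 0.77) and AGT (r = 0.76). AOAT2 had its lowest value with HPR1 (r = 0.12) and its highest with AGT and PLGG1 (r = 0.51 for both). These coefficients describe arrays that share slides, groups and normalization, and no test was made of them.

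**Figure D5:**
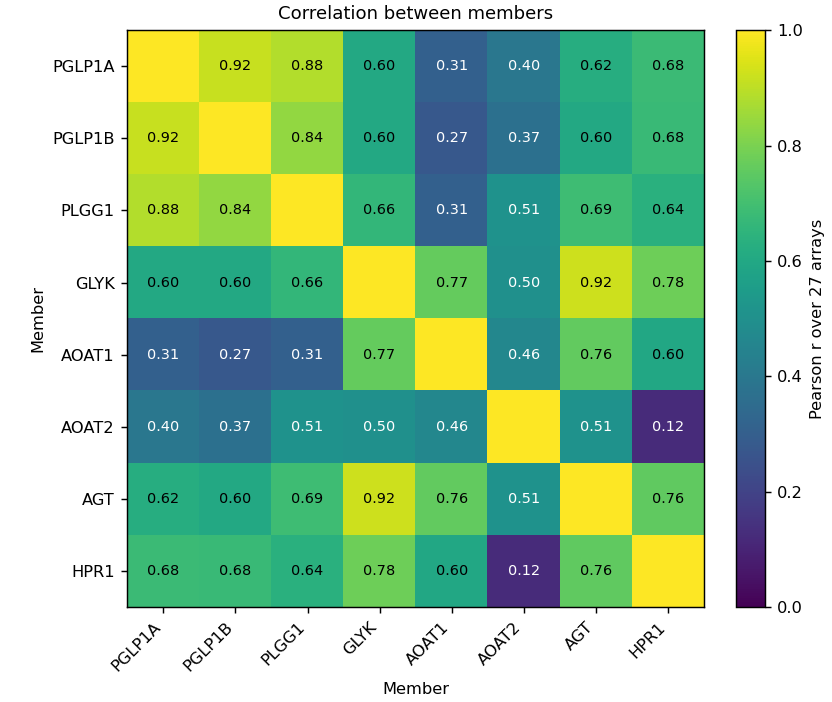
Pearson r over the 27 arrays between the representative features of the 8 loci (rows and columns), with color and number giving r. PGLP1A, PGLP1B and PLGG1 correlated at 0.84 to 0.92 with each other, as against 0.12 to 0.51 for AOAT2 with any other member.

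Among 32619 other loci, the profiles most like PGLP1A were those of HEME2 (r = 0.95), an enzyme of tetrapyrrole synthesis, ACP4 (r = 0.93), an acyl carrier protein of plastids, and PnsL2 (r = 0.92), a subunit of the chloroplast NDH complex. PGLP1B was closest to MES18 (r = 0.94), TT7 (r = 0.93), a flavonoid hydroxylase, and CP12-2 (r = 0.92), a regulator of the Calvin-Benson cycle. PLGG1 was closest to AT1G29700, AT3G06145 and PDF1B, a peptide deformylase of organelles (r = 0.93 to 0.94). GLYK was closest to AT5G56100, DIN4, a subunit of branched-chain ketoacid dehydrogenase, and ASN1, an asparagine synthetase induced in the dark (r = 0.94 to 0.95). AGT was also closest to AT5G56100 (r = 0.94), followed by the plastid desaturase FAD5 and CYCP2;1. HPR1 was closest to CINV1, a neutral invertase, AT3G17670 and AT1G02650 (r = 0.93 to 0.94). AOAT1 was closest to MCCB (r = 0.87) and ETFQO (r = 0.86), which act in the mitochondrial breakdown of leucine, and to AT1G79510 (r = 0.85). AOAT2 was closest to AT3G60972, AT4G30620 and AT1G04457 (r = 0.90 to 0.91). None of the other 24 photorespiration genes was among the 100 closest loci of any member, all over the same 27 arrays.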

How the data were processed

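The deposited values were intensities, which the authors' array laboratory had processed by RMA (background correction, normalization and a summary over the probe pairs of each feature) and left on a linear scale. limma is named in the submitters' processing notes without a version or a role. The genome build and probe design are not given in the sources used here. The per-array files and the series table agreed value for value. The files give no background, detection or saturation value, so the precision rests on the number of arrays.

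The log2 of the intensity was quantile-normalized between arrays, because array medians (10.02 to 10.17) spread over more than the 0.1 units allowed. One mean per group (9 groups, all 27 arrays) was fitted with limma 3.58.1 (R 4.3.3), and labels were read with jsonlite 2.0.0. Two-sided p values from limma's moderated test were adjusted (Benjamini-Hochberg) across the 37118 features of each of 13 comparisons and 4 tests of the difference between Cd responses, with a threshold of 0.05. Fold changes are on the log2 scale, with SE from the model. The feature with the highest mean stood for a locus that had more than 1. Symbols came from a RefSeq table (assembly TAIR10.1), which held 31993 of the 32627 loci, and AT5G36790 and AT1G80380 have none there. The calls were tested on simulated data, and the outcome is not reported here.

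The members, the gene lists (24 other photorespiration genes, 12 Calvin-Benson enzymes, 13 clock genes, 16 root markers and 18 light-harvesting and Rubisco genes) and the tests were chosen with earlier results of these data known. By rule, all features of the members, GOX2, up to 4 other photorespiration genes past the threshold per comparison and the 3 loci best correlated with each member were named; BOU, GDCH and further values were named beside them after being seen. Same-numbered replicates deviated together (r over 0.1 for each number) only in 35S::GOX2 Cd 24 h against 35S::GOX2 Cd 30 min (r = 0.34, 0.51 and 0.37), and the labels tie no numbers to shared plants. Each replicate is described as a separate pool of plants. As alternatives, the fit was repeated on the unnormalized deposited log2 values, on the series table, without the dimmest 25% of features, on locus means, with a replicate block, with slide as a random or fixed block, with only the groups compared, without each array in turn, and without 6 doubtful arrays.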

Additional observations from a re-analysis of the deposited data

Results flagged for a closer look

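In 7 cases the response to Cd of a member's representative feature differed between a line and WT by limma's test of the difference itself, adjusted over 37118 features. At 30 min the response of the arrays labelled gox2 minus that of the arrays labelled WT was -0.68 ± 0.12 for AOAT2 (adjusted p = 0.000625), -0.50 ± 0.13 for PGLP1A (adjusted p = 0.0069), -0.40 ± 0.14 for AGT (adjusted p = 0.046), -0.39 ± 0.10 for PLGG1 (adjusted p = 0.0062) and -0.34 ± 0.12 for PGLP1B (adjusted p = 0.045). At the same time the response of the arrays labelled 35S::GOX2 minus that of WT was -0.58 ± 0.12 for AOAT2 (adjusted p = 0.000699). AOAT2 fell in both lines and rose in WT, and these differences share the WT arrays. With slide as a random block all 5 differences of gox2 lost their call (adjusted p = 0.070 to 0.330), as did the AOAT2 changes at 30 min in 35S::GOX2 (adjusted p = 0.183) and WT (adjusted p = 0.160). For the difference of gox2, only 109 of all features passed with that block, against 10030. The AOAT2 difference of 35S::GOX2 kept its call with that block (adjusted p = 0.0051) and lost it with slide as a fixed term (adjusted p = 0.070). At 24 h the response of 35S::GOX2 minus that of WT was 0.40 ± 0.14 for HPR1 (adjusted p = 0.034), or 0.102 with slide as a random block. Dixon's test for a single outlying array was not run, since each group had 3 arrays.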

How the results depend on the processing

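Counts are of the 8 loci past the threshold, with the value under an alternative set beside the reported one. With the values as deposited, WT Cd 24 h against its control gave 0 in place of 1 and the difference of 35S::GOX2 from WT in the 24 h response 2 in place of 1. Without the dimmest 25% of features, that difference gave 3, and gox2 against WT at 24 h gave 1 in place of 0. In that fit 35S::GOX2 against WT at 24 h gave 4 in place of 3 (PGLP1A added, adjusted p = 0.038). Averaging the features of each locus gave 1 in place of 2 for 35S::GOX2 Cd 24 h against its control. It gave 4 in place of 3 for 35S::GOX2 against WT at 24 h (PGLP1A added, adjusted p = 0.022). For the 30 min difference of gox2 it gave 6 in place of 5. With the replicate block, the 24 h difference of 35S::GOX2 gave 2 in place of 1, 35S::GOX2 against WT at 24 h gave 4 in place of 3 (PGLP1A added, adjusted p = 0.041), and no other count moved; same-numbered arrays correlated at -0.53 to 0.51 in their deviations. With slide as a random block (correlation 0.236), the count was 0 for WT and for 35S::GOX2 at 30 min against their controls, 35S::GOX2 Cd 24 h against its control, gox2 against WT at 30 min, 35S::GOX2 against WT at 24 h, and the differences in response of gox2 at 30 min and 35S::GOX2 at 24 h, and 1 for gox2 control against WT control. The random block also gave 4 in place of 6 for gox2 at 30 min against its control. With it 7 of all features passed for gox2 against WT at 30 min, against 2846. For the 30 min difference of gox2 109 did, against 10030. With slide as a fixed term, the 30 min difference of 35S::GOX2 gave 0 in place of 1, and 10 of the 17 contrasts could not be estimated. With only the groups compared, WT and 35S::GOX2 at 30 min, 35S::GOX2 at 24 h and the 24 h difference of 35S::GOX2 gave 0, WT at 24 h gave 3, 35S::GOX2 control against WT control gave 2, and 35S::GOX2 against WT at 24 h gave 1. The 30 min difference of gox2 gave 6 in place of 5 in that setting. Without the 6 doubtful arrays, chosen after seeing the data, WT at 24 h gave 4, 35S::GOX2 at 24 h gave 4 against its control and 5 against 30 min, gox2 control and 35S::GOX2 control against WT control gave 5 and 2, 35S::GOX2 against WT gave 1 at 30 min and 8 at 24 h, and the 24 h difference of 35S::GOX2 gave 7; 3 contrasts with gox2 Cd 24 h had no value. Leaving out 1 array gave 0 to 1 for WT at 30 min, 0 in each fit for WT at 24 h, 0 to 3 for gox2 at 24 h, 0 to 1 for 35S::GOX2 at 30 min, 0 to 4 for 35S::GOX2 at 24 h against its control and against 30 min, 1 to 2 for gox2 control and for gox2 against WT at 30 min, 0 to 3 for gox2 and 1 to 7 for 35S::GOX2 against WT at 24 h, and for the differences in response 3 to 4 for gox2 at 30 min and 0 to 5 for 35S::GOX2 at 24 h. Shares over all features are not given for the fits that left out 1 array. Without the doubtful arrays gox2 at 30 min gave 7 against its control, and its difference from WT gave 7. The number of all features past the threshold also rose in every contrast fitted without them. The causes were not tested. No member changed direction past the threshold under any alternative, the 6 falls of gox2 at 30 min each passed in every fit that left out 1 array, and AOAT2 passed in gox2 and 35S::GOX2 control against WT control in every alternative run. With 3 arrays a group and SE of 0.07 to 0.16, some estimates well above their SE did not pass, the largest being the 30 min difference of gox2 for GLYK (-0.42 ± 0.16, adjusted p = 0.061).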
